A study of Mus musculus with 8 samples.

Results

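Among the cells of whole E11.5 mouse limbs, 432 of 11146 carried at least 1 unique molecular identifier (UMI, the tag that marks each captured transcript) in 3 or more of the 6 genes *Agtr2*, *Lum*, *Slitrk6*, *Tmem100*, *Wif1* and *Tcerg1l*, which had been proposed as marks of connective progenitors. Kept cells had at least 3000 UMIs and at most 10% mitochondrial UMIs, and 53085 cells of the whole series passed the same filter. The cells meeting this rule, called the selected cells below, numbered 206 of 5464 in the library whole 1 and 226 of 5682 in whole 2. Outside the rule genes they had higher levels of the proteoglycan genes *Dcn* and *Kera*, of the chemokine gene *Cxcl14* and of proximal limb transcription factor genes (*Emx2*, *Irx3*, *Irx5*). Of 24 connective tissue and fibroblast regulators 5, among them *Osr1*, were higher and 3 lower. Levels were lower for 14 of 16 distal limb genes and 3 of 12 chondrogenic markers. Over all genes compared, 0.578% were higher and 0.629% lower. Not all selected cells shared these traits. Those with *Agtr2* and without *Lum* had no *Dcn* UMI, and *Irx3* was lowest in those with *Lum* and without *Agtr2*. *Irx3*, *Irx5* and *Osr1* did not keep a 2-fold difference when the comparison was limited to cells of proximal type. In that comparison 2 of the 16 distal limb genes and 7 of the 12 chondrogenic markers were lower. When cells were clustered without the rule genes, 5 of 18 clusters held 390 of the 432 selected cells and 7 further clusters the rest. The 5 were taken by their number of selected cells. Each also held 5.34 to 9.93% of the other cells of whole 1 and 4.88 to 10.3% of those of whole 2. Because the cells were chosen by measured UMIs, every comparison of selected with other cells is a description and no p-value is given.

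The study profiled limb cells of mouse embryos in 8 droplet libraries, 6 of sorted tdTomato+ cells from E11.5 to E16.5 and 2 of whole E11.5 limbs. Embryos of all libraries were C57BL/6J mice homozygous for *Hic1* CreERT2 and for Rosa26 LSL-tdTomato, and the dams were given 7.5 mg tamoxifen at E10, so that tdTomato marks cells with *Hic1* promoter activity at that time and their descendants. The CreERT2 allele sits in *Hic1* itself, so all groups lack an unmodified copy of that gene. Whole 1 and whole 2 hold tdTomato+ and tdTomato- cells alike and, per the methods, lineage-negative cells of whole limbs. The E11.5 sorted library holds tdTomato+ cells of pooled forelimbs, also lineage-negative. In the methods the lineage panel labels blood and endothelial surface markers, and cells with them were excluded.

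Limb connective tissue forms the fibrous framework of muscle, tendon and dermis and arises from loose mesenchyme that also yields cartilage. Lumican (*Lum*), decorin (*Dcn*), keratocan (*Kera*) and epiphycan (*Epyc*) are small leucine-rich proteoglycans, secreted matrix proteins of which several bind collagen fibrils. *Wif1* encodes a secreted protein that binds Wnt ligands, *Agtr2* the angiotensin II type 2 receptor, *Slitrk6* a neuronal-type transmembrane protein with leucine-rich repeats, and *Tmem100* a small membrane protein. The limb mesenchyme is patterned from the shoulder to the digits, with *Meis* genes marking its proximal part and *Hoxa13* and *Hoxd13* its distal part.

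The rule genes themselves chose the cells, so their levels say only how the choice worked. Levels are given in CPM, counts per 1000000 of the UMIs summed over the cells of a group. *Lum* stood at 341 CPM in the selected and 14.5 CPM in the other cells of whole 1, and at 308 and 18.7 CPM in whole 2. For *Wif1* the levels were 240 against 32.0 CPM and 229 against 34.6 CPM. *Slitrk6* had 101 against 10.98 CPM and 90.0 against 10.2 CPM. Of the other rule genes, *Agtr2* had 85.2 against 1.95 CPM in whole 1 and 83.5 against 3.18 CPM in whole 2. *Tmem100* had 69.3 against 6.34 CPM and 77.4 against 5.59 CPM, and *Tcerg1l* 43.5 against 0.752 CPM and 42.6 against 1.20 CPM. For each gene the libraries gave like levels in the selected cells.

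**Figure D1:**
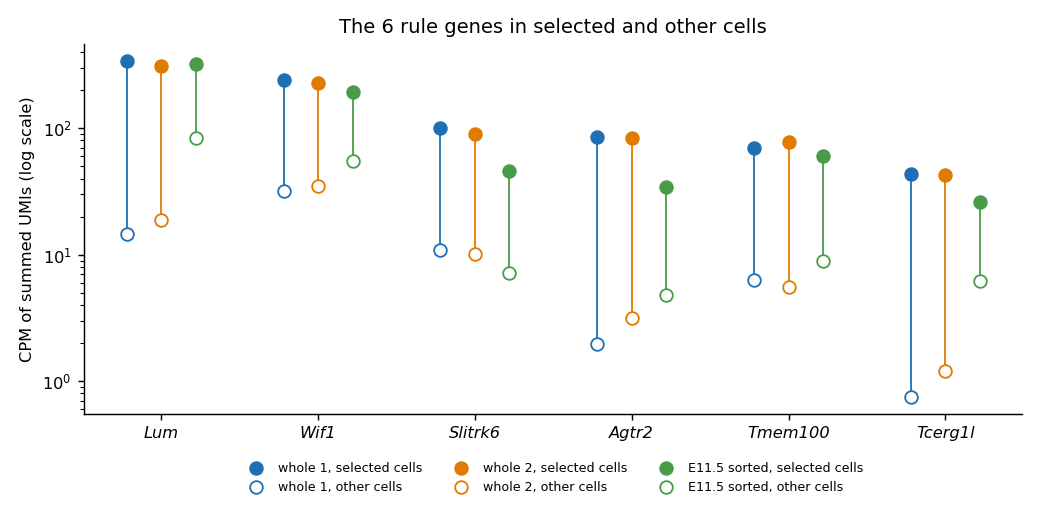
Levels of the 6 rule genes in CPM of summed UMIs (log scale) for selected cells (filled points) and other cells (open points) of whole 1, whole 2 and the E11.5 sorted library, with a line joining the pair of 1 library. The open points for Lum and Wif1 lie higher in the sorted library (83.2 and 55.3 CPM) than in the whole limb libraries.

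*Wif1* UMIs were found in 90.3% and 89.4% of the selected cells of whole 1 and whole 2, those of *Lum* in fewer (72.3% and 70.8%) and *Slitrk6* (68.4% and 66.4%). *Tmem100* (43.2% and 47.3%), *Agtr2* (32.5% and 36.3%) and *Tcerg1l* (27.2% and 31.9%) were detected in fewer again. The commonest combination was *Lum*, *Slitrk6* and *Wif1* with no other rule gene, in 47 selected cells of whole 1 and 54 of whole 2. Among cells with at least 3 myogenic markers that did not meet the rule, a class that should lack most of these genes (2 myogenic cells of whole 2 that met it were left out), *Wif1* was found in 2.49% and 4.96%, *Lum* in 1.78% and 3.31% and *Agtr2* in 0.712% and 0.826%, at median depths of 13203 and 12199.5 UMIs against 8850.5 and 8593.5 over all kept cells. *Tmem100* was found in 10.3% and 7.02% of those myogenic cells, above its 4.68% and 4.16% among all other cells, so this class gave no background level for it. The rule counts 1 *Tmem100* UMI like any other: 20 and 25 selected cells had *Lum*, *Tmem100* and *Wif1* and no other rule gene.

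The selected cells were 3.77% of whole 1 (exact binomial 95% interval 3.28 to 4.31%) and 3.98% of whole 2 (3.48 to 4.52%), a mean of 3.87% ± 0.147 (SD, n = 2 libraries). Such intervals cover counting error only. The share varied with depth. With the cells of a library split by depth into 3 equal classes, it was 1.92% in the shallowest, 5.16% in the middle and 4.23% in the deepest class of whole 1, and 2.22%, 5.07% and 4.65% in whole 2. With every cell thinned to 3000 UMIs, 52 cells (0.952%, 0.712 to 1.25%) of whole 1 and 57 cells (1.00%, 0.761 to 1.30%) of whole 2 met the rule. Median depth was 9576.5 UMIs in selected and 8800.5 in other cells of whole 1, and 9050.5 and 8574 in whole 2. In whole 2, which held both cells with *Xist* and cells with Y-linked UMIs, the share was 3.85% of the former and 4.42% of the latter.

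At the edge of the rule lay 148 and 154 cells with exactly 3 rule genes, and just outside it 369 and 410 cells with 2. *Lum* stood at 288 and 305 CPM in the former and at 103 and 132 CPM in the latter, and *Agtr2* at 62.3 and 59.6 CPM against 18.6 and 25.4 CPM. Cells with 4 or more rule genes numbered 58 and 72. These levels follow from the rule.

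As a description of how far the 6 genes were found in the same cells, each was left out in turn and cells were chosen by at least 2 of the other 5. The 6 had been put together with earlier results of these data known, so their association is no independent finding. The left-out gene was higher in the chosen cells for all 6 genes and in both whole limb libraries, with a median fold of 4.07 on the (CPM + 5) scale (4.29 in whole 1 and 3.87 in whole 2). *Lum* had the largest difference, 164 against 15.2 CPM in whole 1 and 157 against 19.6 CPM in whole 2. *Agtr2* stood at 33.6 against 2.09 CPM and at 34.5 against 3.41 CPM. The smallest ratio was that of *Tmem100* in whole 1, 30.0 against 6.73 CPM, and of *Slitrk6* in whole 2, 44.9 against 10.7 CPM. With all cells at 3000 UMIs the median fold was 4.56, as large as without thinning. The remaining cells included distal and myogenic cells. The left-out comparison was not repeated among the *Meis* cells described below, so position was not held alike.

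**Figure D2:**
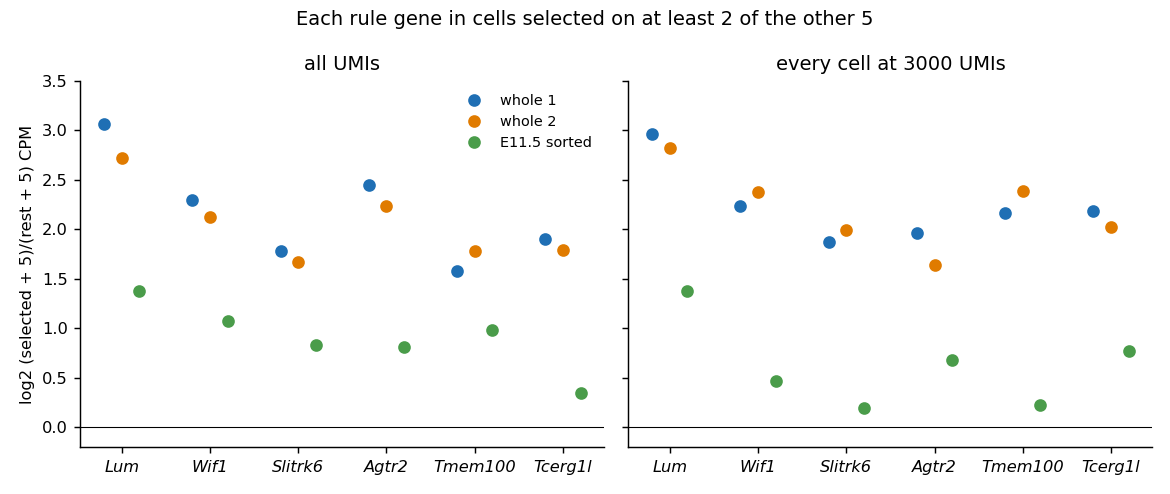
Log2 ratio of each rule gene, at (CPM + 5), between cells chosen by at least 2 of the other 5 rule genes and the remaining cells, with all UMIs (left) and with every cell at 3000 UMIs (right). In both panels the points of whole 1 and whole 2 lie above the point of the E11.5 sorted library for each of the 6 genes.

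Among the sorted tdTomato+ cells of E11.5 the same 6 genes were more weakly tied to each other. The median left-out fold there was 1.87 with all UMIs and 1.49 at 3000 UMIs. At 3000 UMIs *Slitrk6* had 13.6 CPM in the chosen and 11.2 CPM in the remaining sorted cells, and *Tmem100* 17.1 and 13.9 CPM, whereas in whole 1 the values were 65.4 against 14.2 CPM and 54.7 against 8.34 CPM. *Lum* kept the largest sorted difference, 271 against 101 CPM. The sorted group is 1 library, so the difference between sorted and whole limb cells was not tested.

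Outside the rule, 11767 genes at 1 CPM or more in both whole limb libraries were compared between selected and other cells. *Xist*, *Tsix*, 4 Y-linked genes, haemoglobin genes and mitochondrially encoded genes did not enter. A gene was called when it was at least 2-fold higher or lower in both libraries on the (CPM + 5) scale. By this measure 68 genes (0.578%) were higher and 74 genes (0.629%) lower in the selected cells, and no gene was 2-fold higher in one library and 2-fold lower in the other. With every cell at 3000 UMIs, where fewer cells met the rule, the counts were 98 higher and 342 lower, and at a pseudocount of 1 they were 109 and 246, so the balance of higher and lower genes depended on these choices. The median log2 ratio over all genes compared was -0.05. Counts of called genes in the lists below stand beside the shares of 0.578% and 0.629% over all genes. The lists were chosen with earlier results of these data known. They overlap: *Tbx18*, *Twist2*, *Foxp2*, *Kera*, *Osr1*, *Irx3* and *Irx5* each stand in more than 1 list. Counts of different lists are therefore not independent.

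**Figure D3:**
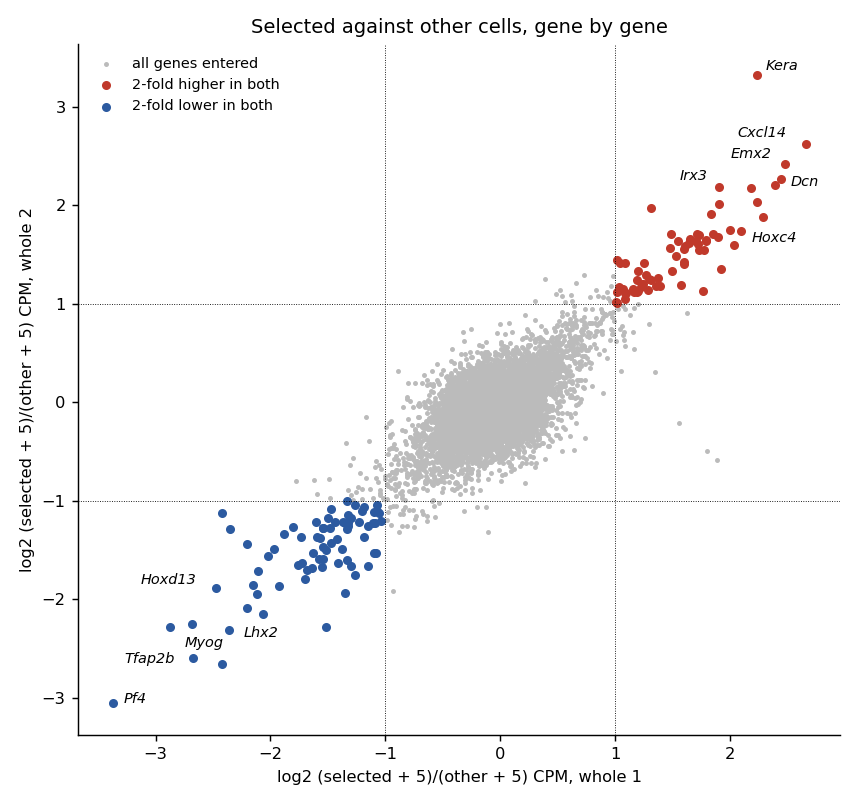
Log2 ratio of selected over other cells at (CPM + 5), whole 1 on the horizontal and whole 2 on the vertical axis, 1 point a gene, with dotted lines at 2-fold. The 68 genes called higher (red) and 74 called lower (blue) lie in opposite corners, and Kera stands apart in whole 2.

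The matrix genes closest to the rule lie beside *Lum* on chromosome 10. *Dcn* (chr10:97479609-97518143 in GRCm38, plus strand), *Lum* (chr10:97565128-97572703), *Kera* (chr10:97606879-97613692) and *Epyc* (chr10:97644068-97682454) follow each other on the same strand within 203 kb. *Dcn* stood at 41.7 CPM in selected and 3.56 CPM in other cells of whole 1, and at 34.3 and 3.18 CPM in whole 2, an 11.7-fold (exact 95% interval of the counts 8.97 to 15.2) and 10.8-fold (8.12 to 14.2) difference. *Kera* stood at 23.9 against 1.14 CPM in whole 1 and at 55.2 against 1.04 CPM in whole 2, 21.0-fold (14.1 to 31.2) and 53.0-fold (38.0 to 74.9). Its fold thus differed between the libraries by more than counting error allows, and it came from few cells, 20 of 206 and 43 of 226. *Epyc* was too low to be compared by the rule for all genes, with 14 UMIs in the selected and 10 in the other cells of whole 1 and 7 and 7 in whole 2, a ratio of 32.2 (13.3 to 81.1) and 21.3 (6.38 to 71.2). The *Epyc* UMIs came from 5 of 206 and 5 of 226 selected cells, and those of *Dcn* from 51 and 47. In summed UMIs all 4 neighbours were therefore higher in the selected cells of both libraries, with *Lum* so by choice.

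Of a list of 16 small leucine-rich proteoglycan genes, 5 outside the rule could be compared, and the rest were not assessed. Of the 5, *Dcn* and *Kera* were called, while *Bgn* had 13.6 against 14.9 CPM in whole 1 and 2.61 against 13.9 CPM in whole 2. *Ogn* had 0.936 against 1.97 CPM and 2.61 against 1.78 CPM. Of 21 interstitial matrix genes compared, 2 were called higher and none lower, with a median log2 ratio of 0.33. These were *Tnc* (tenascin C), at 20.1 against 1.73 CPM and 16.5 against 1.71 CPM, and *Col3a1* (type III collagen), at 327 against 123 CPM and 367 against 151 CPM. *Col1a1* lay at the limit with 136 against 68.4 CPM and 166 against 77.2 CPM. Among the *Meis* cells described below, 1 of the 21 genes was higher, with a median of 0.007. *Col6a1*, *Col6a2* and *Postn* had at most 5.62 CPM in the selected cells, so transcripts of these matrix genes were low there. This value alone does not set the selected cells apart from the other cells.

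Among genes for secreted factors and their receptors, *Cxcl14*, a chemokine, had the largest difference by the smaller ratio of both libraries, at 293 against 42.0 CPM in whole 1 and 307 against 45.9 CPM in whole 2, 6.96-fold (6.35 to 7.61) and 6.70-fold (6.15 to 7.29). *Smoc2*, a calcium-binding matricellular protein, had 75.8 against 10.4 CPM and 70.9 against 11.5 CPM. *Ntn1* (netrin 1), a guidance cue for axons, had 43.1 against 4.86 CPM and 39.1 against 6.98 CPM. *Igf1*, insulin-like growth factor 1, had 94.1 against 25.2 CPM and 96.1 against 26.0 CPM. The less studied genes *Spats2l* (139 against 35.3 CPM and 129 against 30.7 CPM), *2700069I18Rik* (93.1 against 16.6 CPM and 93.0 against 16.7 CPM) and *Fam174b* (42.6 against 8.19 CPM and 40.0 against 8.74 CPM) were higher as well.

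Of the Wnt pathway, to which the rule gene *Wif1* belongs, 3 lists were compared. Of 13 other secreted Wnt modulators compared, *Dkk2* was called higher (60.4 against 10.9 CPM and 40.0 against 9.94 CPM) and *Frzb* lower (21.5 against 69.9 CPM and 27.0 against 67.3 CPM). Of 7 Wnt ligands, *Wnt11* was higher (30.4 against 4.35 CPM and 19.9986 against 4.80 CPM) and *Wnt5a*, a ligand of the distal mesenchyme, lower (66.0 against 173 CPM and 70.4 against 179 CPM). The receptor gene *Ror1* was the 1 called among 23 Wnt receptors and targets, at 18.7 against 6.59 CPM and 24.3 against 8.02 CPM. The median log2 ratios of these 3 lists were -0.21, -0.07 and -0.02, against -0.05 over all genes. Among *Meis* cells *Dkk2* kept its call, and *Wnt11*, *Ror1* and *Wnt5a* did not. For *Agtr2*, a receptor of the renin-angiotensin system, 4 of 12 genes of that system outside the rule could be compared and none was called; *Agt* and *Ren1* had no UMI in the selected cells of either library.

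Of 26 axon guidance genes compared, *Ntn1* and *Efnb2* (68.8 against 25.2 CPM and 74.3 against 31.1 CPM) were higher, and *Unc5c*, *Unc5b* and *Sema3c* lower. *Unc5b* and *Unc5c* encode netrin receptors, and *Unc5c* had 7.96 against 33.3 CPM and 10.4 against 35.0 CPM. In the bone morphogenetic protein list *Bambi*, a decoy receptor, was lower (57.6 against 179 CPM and 49.6 against 169 CPM) and 20 of 21 genes were not called. Of 14 retinoic acid genes *Stra6*, a retinol transporter gene, was higher (66.9 against 16.2 CPM and 47.4 against 18.9 CPM). None of 17 FGF pathway genes, 11 hedgehog genes, 20 G2/M genes, 18 S phase genes and 15 immediate early genes was called in either direction.

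The transcription factor genes called higher included several of connective tissue. In a list of 24 regulators of muscle connective tissue and fibroblasts, 5 were higher and 3 lower, with a median log2 ratio of 0.34. These are 20.8% and 12.5% of the list, against 0.578% and 0.629% of all genes compared. *Osr1*, a regulator of irregular connective tissue, had 78.2 against 15.7 CPM in whole 1 and 63.9 against 15.5 CPM in whole 2. *Meox2* had 177 against 50.7 CPM and 160 against 48.2 CPM, *Tbx18* 277 against 85.0 CPM and 296 against 93.1 CPM, *Twist2* 129 against 58.1 CPM and 136 against 60.1 CPM and *Foxp2* 52.0 against 23.1 CPM and 57.8 against 23.9 CPM. The 3 lower genes were *Gata6*, *Gata3* and *Ebf1*, of which *Ebf1* had 69.7 against 153 CPM and 45.7 against 142 CPM. Several widely used connective tissue markers were not called, among them *Osr2* (47.3 against 38.4 CPM and 50.4 against 35.7 CPM), *Pdgfra* (166 against 108 CPM and 217 against 132 CPM) and *Tcf7l2* (164 against 177 CPM and 217 against 201 CPM). Among the *Meis* cells described below, 1 of the 24 was higher and 3 were lower, with a median of -0.08. The label of connective progenitors thus matched 5 of the 24 over all cells and 1 among the *Meis* cells. No single cell type name was given to the selected cells.

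Proximal limb genes lay higher and distal limb genes lower in the selected cells. Of 11 proximal and stylopod genes compared, 5 were higher and none lower (median log2 ratio 0.99). *Tbx18*, given above among the connective tissue regulators, is 1 of these 5. *Emx2*, needed for the shoulder blade, had 55.2 against 5.80 CPM in whole 1 and 67.4 against 8.53 CPM in whole 2. *Irx3* had 124 against 29.4 CPM and 157 against 30.6 CPM, *Irx5* 71.1 against 15.4 CPM and 80.4 against 16.2 CPM, and *Shox2*, a gene of the upper arm skeleton, 1018 against 303 CPM and 894 against 302 CPM. *Nr2f1*, a nuclear receptor gene, had 101 against 17.4 CPM and 86.1 against 17.3 CPM. In the Hox clusters, *Hoxc4* (57.6 against 9.62 CPM and 47.8 against 10.8 CPM), *Hoxc6*, *Hoxb2* and *Hoxb6* were higher and *Hoxd11*, *Hoxd12*, *Hoxd13* and *Hoxa13* lower.

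Of 16 distal limb genes 14 were lower and none higher, with a median log2 ratio of -1.63. *Hoxd13*, a gene of the future hand, had 18.7 against 127 CPM in whole 1 and 26.1 against 110 CPM in whole 2. *Lhx2*, which acts in distal outgrowth, had 16.4 against 105 CPM and 17.8 against 108 CPM, *Lmo2* 6.08 against 76.2 CPM and 9.13 against 63.8 CPM, and *Tfap2b* 1.87 against 38.8 CPM and 0.870 against 30.5 CPM. *Msx2* and *Lhx9* were lower too, at 73.0 against 237 CPM and 89.9 against 211 CPM in whole 1 and at 63.5 against 215 CPM and 101 against 216 CPM in whole 2. *Pmaip1* and *Cdkn1a*, both targets of p53, had 32.8 against 197 CPM and 5.62 against 41.0 CPM in whole 1, and 19.1 against 148 CPM and 4.35 against 31.1 CPM in whole 2. *Hey1*, a Notch target, had 8.42 against 56.8 CPM and 8.70 against 53.2 CPM.

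Because position differed so strongly, the comparison was repeated among cells with a *Meis1* or *Meis2* UMI and no *Hoxa13* or *Hoxd13* UMI, a limit chosen after the first comparison had been seen. Such cells made up 62.1% of the selected and 28.8% of the other cells of whole 1, and 64.2% and 30.5% in whole 2. There were 24 genes higher (0.202% of 11857) and 72 lower (0.607%), of which 21 and 28 had been called before. Among the genes higher in both comparisons were *Cxcl14*, *Kera*, *Smoc2*, *Dcn*, *Ntn1*, *Emx2*, *Spats2l* and *Nr2f1*. *Efnb2*, *Col3a1*, *Igf1*, *Tbx18*, *Shox2*, *Stra6*, *Twist2* and *Foxp2* were no longer called, with mean log2 ratios from 0.32 (*Foxp2*) to 0.97 (*Igf1*). *Kera* and *Dcn* kept mean log2 ratios of 2.40 and 2.01 (2.78 and 2.36 over all cells), while *Irx3* and *Hoxc4* had 0.97 and 0.95 (2.04 and 1.92 over all cells) and *Irx5* and *Osr1* 1.02 and 1.03 (1.96 and 1.88 over all cells), none of the 4 being 2-fold higher in both libraries any longer. The median of the proximal list was 0.13 and that of the distal list -0.54 in this comparison. Of the 11 proximal genes 1 was higher and 1 lower, and of the 16 distal genes 2 were lower. The choice of cells by *Meis* and *Hox13* UMIs itself bears on both lists. *Cxcl14* and *Smoc2* kept mean log2 ratios of 2.15 and 1.94 (2.64 and 2.30 over all cells).

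Among all cells 3 of 12 chondrogenic markers compared were lower (*Col9a1*, *Sox6*, *Sox5*; median log2 ratio -0.87), and among the *Meis* cells 7 were lower (median -1.37). *Col9a1*, a cartilage collagen gene, had 20.6 against 105 CPM in whole 1 and 30.0 against 110 CPM in whole 2. *Sox9*, the master regulator of cartilage, was not called, with 133 against 225 CPM and 130 against 244 CPM. UMIs in 3 or more of 14 chondrogenic markers were found in 18.0% and 19.0% of the selected against 39.8% and 41.4% of the other cells (2.43% and 5.75% against 15.9% and 16.8% at 3000 UMIs). For 10 dermal markers the shares were 58.7% and 54.4% against 28.0% and 28.2% (10.2% and 13.7% against 3.92% and 4.44% at 3000 UMIs), with *Wnt11* and *Twist2* called higher. Among *Meis* cells no dermal marker was called higher and 1 (*Dkk1*) lower. Of 11 perichondrium and joint markers *Foxp1* (206 against 64.8 CPM and 203 against 65.4 CPM) and *Foxp2* were higher. Of 6 tendon markers compared *Kera* alone was called.

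Myogenic genes were lower in the selected cells, and few epithelial, endothelial, immune or glial cells were found among selected or other cells. None of the 432 had UMIs in 3 or more epithelial, endothelial, immune or glial markers, which at a limit of 3 counts allows shares of up to 1.46% in whole 1 and 1.33% in whole 2. Such cells were rare among the other cells too (0.399% and 0.385% epithelial, 0.437% and 0.550% endothelial, 0.0951% and 0.0550% glial), and the immune list found no cell in either library. Cells with blood and endothelial surface markers had been excluded before capture, so the scarcity of immune and endothelial cells is no trait of the selected cells. Of the selected cells 0 and 2 had 3 or more myogenic markers, against 5.34% and 4.44% of the other cells. The 10 myogenic markers summed to 3.74 and 16.1 CPM in the selected and 129 and 104 CPM in the other cells, and *Myf5* had 0 UMIs in the selected cells. Of 9 myogenic markers compared, 6 were lower (*Myog* 0.936 against 33.0 CPM and 1.30 against 24.96 CPM). *Pf4*, a platelet gene, had 0 against 46.7 CPM and 2.17 against 54.7 CPM. A cluster of 85 cells led by *Pf4* and *Ppbp* held no selected cell. Cells of other lineages were then left out, meaning cells with 3 or more myogenic, epithelial, endothelial, immune, erythroid or glial markers. No platelet list was among these. Without such cells 69 genes were higher and 64 lower, of which 63 and 60 had been called with them. *Acta2*, a smooth muscle actin gene lower over all cells (4.68 against 35.5 CPM and 3.04 against 30.6 CPM), was no longer lower (mean log2 ratio 0.23). In whole 1, 1 selected cell had 3 or more erythroid markers, and the 10 erythroid markers summed to 2914 CPM in the selected and 216 CPM in the other cells, against 11.7 and 286 CPM in whole 2.

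The levels of several genes outside the rule went with the number of rule genes in a cell. *Cxcl14* stood at 31.7, 46.4, 119, 243 and 422 CPM in whole 1 cells with 0, 1, 2, 3 and 4 or more rule genes, and at 33.8, 51.2, 128, 258 and 399 CPM in whole 2. *Dcn* stood at 1.93, 3.59, 18.1, 36.3 and 55.4 CPM and at 1.41, 4.19, 14.4, 22.8 and 55.8 CPM. *Lhx2* ran the other way, with 117, 89.6, 46.8, 20.8 and 5.04 CPM and 118, 102, 51.9, 20.8 and 12.4 CPM. These 3 series were ordered in both libraries. Others were not: from 3 to 4 or more rule genes in whole 1, *Irx3* went from 127 to 118 CPM, *Kera* from 24.7 to 21.8 CPM and *Hoxd13* from 17.5 to 21.8 CPM. At the same step in whole 2, *Irx3* went from 143 to 181 CPM, *Kera* from 34.8 to 93.0 CPM and *Hoxd13* from 30.8 to 17.4 CPM. Median depth over the 5 classes ranged from 8737 to 9739 UMIs in whole 1 and from 8413.5 to 10204.5 UMIs in whole 2.

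**Figure D4:**
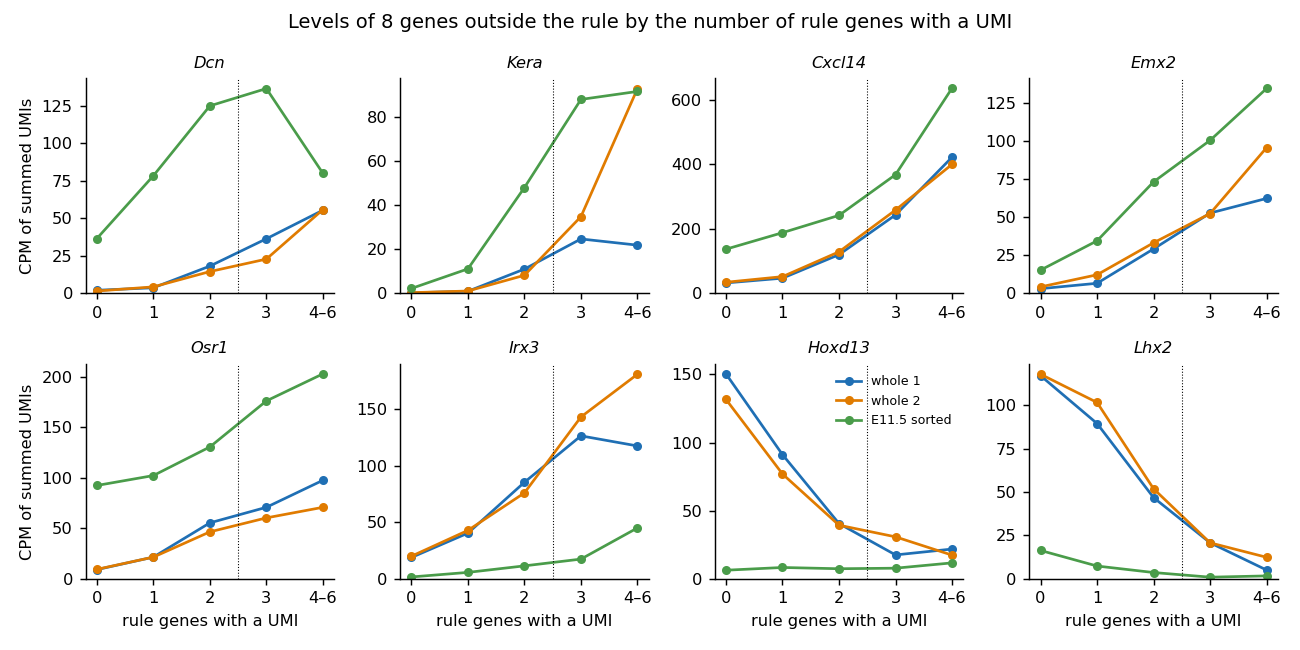
Levels in CPM of 8 genes outside the rule by the number of rule genes with a UMI (0 to 3, and 4 to 6 together) in whole 1, whole 2 and the E11.5 sorted library; the dotted line marks the threshold of the rule. In the whole limb libraries Cxcl14, Dcn and Osr1 go up from left to right and Lhx2 goes down, with no break at the dotted line, and the sorted cells have high Dcn and low Irx3 and Hoxd13 throughout.

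The selected cells were also split by single rule genes. Of 10987 genes at 1 CPM or more in the selected cells of both libraries, 39 (0.355%) were at least 2-fold higher and 21 (0.191%) lower in cells with *Lum*, and 20 (0.182%) were higher and 28 (0.255%) lower in cells with *Agtr2*. Splits by the other rule genes gave 3 (0.0273%) higher and 0 lower with *Slitrk6*, 2 (0.0182%) and 2 (0.0182%) with *Tmem100*, 8 (0.0728%) and 3 (0.0273%) with *Tcerg1l*, and 93 (0.846%) and 35 (0.319%) with *Wif1*, which left 20 and 24 cells without the gene. The rule itself ties the *Lum* and *Agtr2* groups, since a selected cell without *Lum* needs 3 of the other 5 genes and is thus more likely to carry *Agtr2*, so these values are a description and the counts do not show a difference beyond that choice. Groups of this size, 149 and 160 cells with *Lum* and 57 and 66 without, leave each library with many 2-fold differences of its own. The genes named for this split were chosen after their values had been seen.

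Selected cells with *Lum* and without *Agtr2* (120 and 126 cells) had higher *Dcn* than the other sets. In them *Dcn* stood at 67.8 CPM in whole 1 and 56.6 CPM in whole 2, against 0 CPM in the cells with *Agtr2* and without *Lum* (38 and 48 cells). *Dlk1*, a non-canonical Notch ligand of progenitors, had 634 and 570 CPM against 93.1 and 123 CPM. *Gap43*, best known as a growth cone protein, had 155 and 124 CPM against 15.5 and 15.9 CPM, and *Osr1* 105 and 93.5 CPM against 51.0 and 28.2 CPM. *Hoxd11*, which was lower over all selected cells, had 100 and 142 CPM against 37.7 and 7.05 CPM.

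Selected cells with *Agtr2* and without *Lum* had higher *Irx3*, *Hoxc4* and *Gria2* than the sets with *Lum*. *Irx3* had 295 CPM in whole 1 and 372 CPM in whole 2 there, against 39.3 and 53.2 CPM in the cells with *Lum* and without *Agtr2* and 29.4 and 30.6 CPM in all other cells. *Pax1*, a gene of the anterior proximal limb and sclerotome, had 88.6 and 183 CPM against 6.69 and 24.0 CPM. *Hoxc4* had 109 and 120 CPM against 33.5 and 20.6 CPM, and the glutamate receptor gene *Gria2* 70.9 and 120 CPM against 8.37 and 9.44 CPM. The 19 and 18 selected cells with neither *Lum* nor *Agtr2* also had 405 and 161 CPM of *Pax1* and 218 and 167 CPM of *Irx3*. Few cells gave this *Pax1* level: a UMI was found in 36.8% and 16.7% of them. Of the cells with *Agtr2* and without *Lum*, 18.4% and 33.3% had a *Pax1* UMI. These cells also differed in depth and position from those with *Lum* and without *Agtr2*. Their median depth was 11026.5 and 10528.5 UMIs, against 9106 and 8104. The *Meis* cells made up 73.7% and 85.4% of them, against 60.0% and 57.1%. The part of depth and position in these levels was not tested. For *Pax1*, with 63.2 against 28.7 CPM and 75.2 against 35.0 CPM over all cells, the direction turned among *Meis* cells (mean log2 ratio -0.12), among cells with at least 4 rule genes (-0.16) and with every cell at 3000 UMIs (-0.65).

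Other genes were above the level of the other cells in both sets. *Cxcl14* had 279 and 329 CPM in cells with *Lum* and without *Agtr2* and 284 and 259 CPM in cells with *Agtr2* and without *Lum*, against 42.0 and 45.9 CPM in all other cells. *Tbx18* had 255 and 307 CPM and 346 and 256 CPM, and *Emx2* 62.8 and 70.3 CPM and 35.5 and 60.0 CPM. Cells with both genes (29 and 34) lay between these sets for *Irx3* and *Dcn*, with 142 and 147 CPM and 20.8 and 30.5 CPM. For *Kera* the libraries were unlike: cells with both genes had 13.9 and 73.6 CPM against 39.3 and 81.5 CPM with *Lum* alone of the pair, with a UMI in 10.3% and 44.1% against 14.2% and 20.6% of cells, and in the sorted library 187 against 58.5 CPM.

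**Figure D5:**
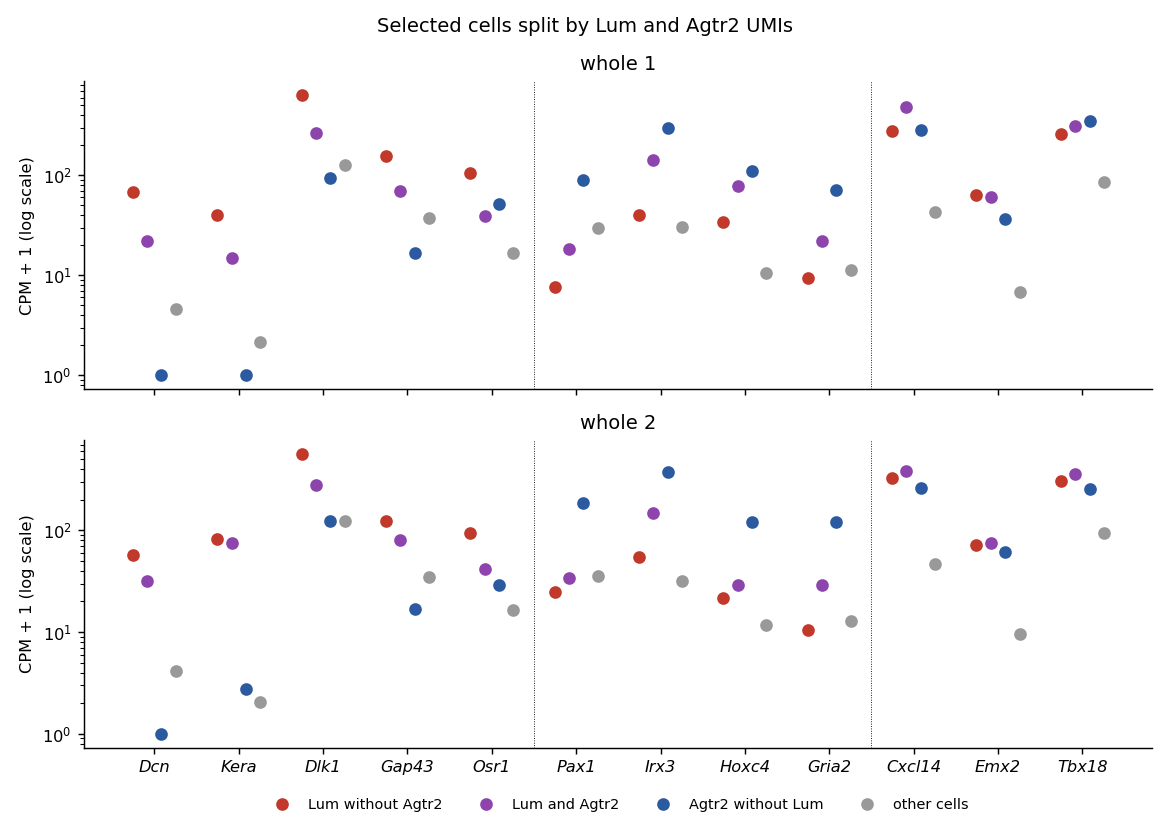
Levels of 12 genes as CPM + 1 (log scale) in selected cells of whole 1 (top) and whole 2 (bottom) split by Lum and Agtr2 UMIs, and in all other cells (grey); the 19 and 18 selected cells with neither gene are not drawn. Of the sets drawn, Dcn, Kera, Dlk1, Gap43 and Osr1 (left block) are highest with Lum and without Agtr2, Pax1, Irx3, Hoxc4 and Gria2 (middle) with Agtr2 and without Lum, and Cxcl14, Emx2 and Tbx18 (right) lie above the other cells in all 3 sets.

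Few cells had UMIs of both *Pax1* and 1 of the pair *Dcn* and *Kera*. Of the 19 and 30 selected cells with a *Pax1* UMI, 2 and 3 also had one of *Dcn* or *Kera* (10.5% and 10.0%), against 30.5% and 35.2% of the selected cells without *Pax1*. Among the other cells the shares were 0.315% and 0.748% with *Pax1*, against 3.40% and 2.97% without it. The counts are small, and the tie of *Lum* and *Agtr2* by the rule bears on those of the selected cells.

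When all whole limb cells were clustered on genes other than the 6, the selected cells were found in 12 of 18 clusters at resolution 1 of the Leiden method, with 390 of the 432 in 5 of them, and in 18 of 28 at resolution 2. Clusters are given here by their leading genes and were not named as cell types. At resolution 2 a group of 4 clusters held 320 of the 432 selected cells (74.1%). The cluster with the highest share of selected cells had 239 cells, of which 98 (41.0%) were selected, and was led by *Emx2*, *Nr2f1*, *Ntn1*, *Kera*, *Cxcl14* and *Dcn*. It held 19.4% and 25.7% of the selected cells of whole 1 and whole 2 and 1.08% and 1.54% of the other cells. A larger cluster of 832 cells led by *Pax1*, *Irx3* and *Irx5* held 104 selected cells, one of 474 cells led by *Osr1* and *Dlk1* held 73, and one of 576 cells led by *Nrtn*, *Col8a1* and *Meox2* held 45. At resolution 1 no cluster had more than 11.8% selected cells. The rule thus took a minority of the cells of every cluster it reached.

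The sorted E11.5 library held 300 rule cells among 3165 (9.48%, 8.48 to 10.6%), but this share also varied with depth: it was 1.80%, 6.07% and 20.5% from the shallowest to the deepest class, and 25 cells (0.790%, 0.512 to 1.16%) at 3000 UMIs. Median depth was 13478.5 UMIs in sorted rule cells and 8658 in the other sorted cells. *Lum* was found in 93.7% of the sorted rule cells, and 12 of the 300 had *Agtr2* without *Lum*, against 38 of 206 and 48 of 226 in the whole limb. The other sorted cells had 31.2% with *Lum* against 6.88% and 8.21% of the other whole limb cells, and *Dcn* at 74.6 CPM against 3.56 and 3.18 CPM.

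Within the sorted library most of these genes leaned the same way. Of the 68 genes higher in the whole limb, 64 had a log2 ratio above 0 in the sorted cells, where 40.8% of all genes compared did, and 16 were at least 2-fold higher, where 0.161% of all genes were. Of the 74 lower genes 70 were below 0 (59.2% of all genes) and 13 at least 2-fold lower (0.263%), and none of the 142 was 2-fold in the opposite direction. *Cxcl14* had 440 against 182 CPM, *Kera* 89.1 against 16.9 CPM and *Emx2* 110 against 36.8 CPM. *Dcn*, present in sorted cells of both kinds, had 121 against 74.6 CPM. *Irx3* and *Pax1* were low there, with 24.9 against 5.61 CPM for *Irx3* and 3.85 against 1.55 CPM for *Pax1*, and *Hoxd13* (8.84 against 7.35 CPM) was low in both kinds.

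Few whole limb cells had UMIs of the genes of the traced lineage. *Hic1* had 7 UMIs in 7 of the 206 selected cells of whole 1 (3.40%, against 0.552% of the other cells), a ratio of 5.56 with an exact interval of 2.05 to 12.96, and 3 UMIs in 3 of the 226 of whole 2 (1.33% against 0.623%), a ratio of 1.83 with an interval of 0.359 to 5.79. A difference was thus larger than counting error in whole 1 and not detectable at this depth in whole 2. tdTomato was found in 3.40% and 3.54% of the selected and 3.46% and 3.63% of the other cells. Its ratios of 0.964 (0.410 to 1.94) and 0.819 (0.349 to 1.64) were within counting error. In the sorted library tdTomato was found in 91.7% of rule cells and 87.4% of the others, and *Hic1* in 23.0% and 19.0%. Median depth was 8658 UMIs in the other sorted cells and 8800.5 and 8574 in the other whole limb cells. Most selected whole limb cells thus had no tdTomato UMI, at a depth near that of sorted cells that mostly had one. The sorted rule cells were deeper, and in CPM both genes were lower in them. tdTomato had 383 against 466 CPM (ratio 0.822, 0.780 to 0.864). *Hic1* had 21.3 against 24.1 CPM (ratio 0.884, 0.705 to 1.10), a difference within counting error. *Aldh1a2*, which makes retinoic acid, had 1 UMI in the selected cells of each whole limb library, against 4.72 and 5.80 CPM in the other cells.

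Whole 1 and whole 2 held 51674380 and 51505671 UMIs in 5595 and 5761 barcodes, and the E11.5 sorted library 32957305 UMIs in 4264. In whole 1, 5138 of the 5464 kept cells had *Xist* and no Y-linked UMI, against 1662 of 5682 in whole 2; the labels give no sex. Whole 1 and whole 2 shared 43 cell barcodes (0.787% of the smaller), and 24 and 28 with the E11.5 sorted library. An automatic doublet caller marked 1 and 5 cells of whole 1 and whole 2, too few to have worked, and with the 5% of cells of highest doublet score left out 76 genes were higher and 91 lower, of which 68 and 72 were those called above.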

How the data were processed

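The deposited files held UMI counts per gene and cell for 8 libraries, made by the authors with Cell Ranger (named in the submitters' processing notes; the study's sources give different versions of it, and which one made these files was not settled) from 10x 3′ libraries (kit version 2 at E11.5) against a modified mm10 genome. No normalization had been applied. Cell Ranger collapses reads to UMIs, so levels count molecules near the 3′ end and are not corrected for gene length. How many embryos each whole limb library came from is not stated. The libraries differed in their share of *Xist* cells, so they were not splits of 1 cell pool.

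Cells with at least 3000 UMIs and at most 10% mitochondrial UMIs were kept. The rule, the gene lists and the members were chosen with earlier results of these data known, and no test was run on selected against other cells. UMIs were summed over selected and other cells of each library, converted to CPM, and compared as log2 ratios at CPM + 5 for genes at 1 CPM or more over all kept cells of both libraries. Intervals are exact at 95%, Clopper-Pearson for shares and conditional on the total for ratios of counts, and cover counting error only. Thinning drew 3000 UMIs from each cell at random. Named genes were the rule genes, the 15 highest and 10 lowest called genes at 20 CPM or more ranked by the smaller ratio of both libraries, called members of the lists (at most 4 a list) with 1 or 2 defining members, and *Hic1*, tdTomato, *Aldh1a2*, *Lhx9* and *Msx2*. Several further genes in the text, among them those of the *Lum* and *Agtr2* split, were chosen after their values had been seen. Clusters used the Leiden method on 2000 variable genes other than the 6, 50 principal components and 25 neighbours. Gene positions came from the GENCODE annotation of GRCm38. The gene comparison was run on simulated data in which genes at 20 CPM or more were changed by more than the 2-fold limit. The simulation had no variation between cells, so it does not show how well calls near 1 CPM or near 2-fold work. Python 3.11.15, numpy 2.4.6, scipy 1.17.1, pandas 2.3.3, scanpy 1.11.5 with its Scrublet, igraph 0.11.9 and matplotlib 3.10.9 were used. Alternatives were the filters, thresholds, pseudocount, thinning, doublets and each library left out.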

Additional observations from a re-analysis of the deposited data

How the results depend on the processing

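The share of selected cells, 3.87%, was 4.27% with at least 5000 UMIs a cell, 0.977% with every cell at 3000 UMIs, 10.9% with at least 2 rule genes, 1.16% with at least 4, 4.08% without cells of other lineages and 7.91% among *Meis* cells, and 3.77 to 3.98% with either library alone. The 68 genes higher became 37 at a filter of 20 CPM, 109 at a pseudocount of 1, 181 at 1.5-fold, 24 at 3-fold and 24 among *Meis* cells, and 89 to 92 in single libraries, where a gene needs the fold once. The 74 genes lower became 342 at 3000 UMIs, 41 with at least 2 rule genes, 46 at 20 CPM, 246 and 47 at pseudocounts of 1 and 10, 230 at 1.5-fold and 18 at 3-fold, and 104 to 107 in single libraries. The median left-out fold of the rule genes, 4.07, was 4.56 at 3000 UMIs, 2.62 and 5.01 with at least 1 and 3 of the other 5 genes, and 6.62 and 3.09 at pseudocounts of 1 and 10 (3.87 to 4.29 in single libraries). Of genes higher and lower with *Lum* there were 186 and 83 at a pseudocount of 1, 19 and 12 at 10, and 187 to 207 and 104 to 106 in single libraries, in place of 39 and 21. Turned directions were counted for those of the 93 named genes that were at least 2-fold in both libraries. Among these, directions turned for *Pax1* (-0.65 at 3000 UMIs, -0.16 with at least 4 rule genes, -0.12 among *Meis* cells) and *Acta2* (0.23 without other lineages). No other of these genes turned under the alternatives run. Of 1581 log2 ratios of the 93 named genes under these alternatives, 956 stayed within 1 SD of the 2 libraries, 621 moved further and 4 turned. Sign changes of named genes with smaller differences were not counted, and the cause was not tested. Selected and other cells were compared within each whole limb library, and no paired test was run on these ratios. The whole limb is the only group with replicate numbers, and no result comes from a test.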
